A study of Mus musculus with 17 samples.

Results

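The IL-17 axis was followed here through 7 genes in single cells from fibrotic skin and kidney of mice. The genes were taken by name and not by a measured value, though earlier results of these data were known when they were chosen: the cytokines Il17a, Il17f and Il22, the IL-17 receptor chains Il17ra and Il17rc, and Il23r and Il23a, which encode a chain of the IL-23 receptor and the p19 chain of IL-23. They are 7 of the 30406 genes shared by all 17 libraries, of which 8 came from skin and 9 from kidney.

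IL-17A and IL-17F are secreted as dimers by γδ T cells, CD4 and CD8 T cells of type 17 and some innate lymphoid cells. They act on a receptor of IL-17RA and IL-17RC, which in epithelial and stromal cells raises chemokines that draw neutrophils. IL-23, made by myeloid cells from p19 and the p40 chain shared with IL-12 (Il12b), acts through IL-23R to sustain the cells that make IL-17 and IL-22, and in skin this axis is best known from psoriasis.

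All mice were 8 weeks old and carried PDGFRb-Cre with the Z/EG reporter, which turns on GFP where Cre has acted, and every library was made from sorted GFP+ cells labelled as PDGFRb+GFP+. SARAWT mice had no further transgene, and SARATg mice also overexpressed SARA, from a human ZFYVE9 cDNA by the methods of the study. In skin, bleomycin at 20 mg/kg was injected under the skin 3 times a week for 2 weeks, with PBS as control: there were 3 SARAWT libraries per treatment and 1 SARATg library per treatment. In kidney, aristolochic acid at 5 mg/kg or vehicle was injected into the peritoneum 3 times a week for 3 weeks: there were 3 SARAWT libraries per treatment, 2 SARATg vehicle libraries and 1 SARATg aristolochic acid library. These schedules follow the labels; the methods of the study describe bleomycin as given every day over the same 2 weeks, with skin taken a further week later. The driver limits these groups as a model of pericytes, since most sorted cells were not of that kind: cells with stromal markers were 3017 of 28978 skin cells and cells with mural markers were 147. The counts below therefore describe GFP+ cells of many types, and the labels do not say whether libraries came from separate mice, so p-values measure the spread between libraries, which may be partly technical.

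The skin libraries held 3355217 to 69765525 UMIs (unique transcript molecules counted) and 776 to 6205 cells each after filtering, and the kidney libraries 28660151 to 137093834 UMIs and 3875 to 9248 cells. Between 0.594% and 55.5% of the barcodes of a skin library were also found in another skin library, with the highest share in PBS 2. Zfyve9, the mouse gene for SARA, went against 3 labels. Its counts show the human cDNA of the transgene only where reads of that cDNA were assigned to the mouse gene, which was not tested. In skin the library labelled SARAWT PBS 3 held 615.6 counts per 1000000 UMIs (CPM) of Zfyve9, against 313 and 222 in the SARATg libraries and 7.78 to 26.1 in the other SARAWT libraries. In kidney the library labelled SARAWT aristolochic acid 1 held 159 CPM and the library labelled SARATg aristolochic acid 1 held 19.5 CPM, against 94.1 and 99.5 in the SARATg vehicle libraries and 9.69 to 31.3 in the rest. These 3 are called "the library labelled" so below, and many results that include them are also given without them; the genotype-by-treatment terms include them and were not fitted without them. Cells were grouped into classes by clustering without the 7 genes and the rest of their pathway, and each class name below means only that its cells resemble that type by a list of markers; a cluster that the markers did not settle keeps its number.

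The promoters of the 4 members that γδ T-like cells carried together in skin are shown because most of their transcripts lay in the same class. Each is the 250 bases before the RefSeq start, on the strand of the gene, in build GRCm38.p6. Capitals mark TATAAA, the letters of the TATA box at which the transcription machinery assembles, which were searched on both strands (reverse complement TTTATA) and chosen after the sequences were seen.
Il17a, chr1:20730655-20730904, plus strand: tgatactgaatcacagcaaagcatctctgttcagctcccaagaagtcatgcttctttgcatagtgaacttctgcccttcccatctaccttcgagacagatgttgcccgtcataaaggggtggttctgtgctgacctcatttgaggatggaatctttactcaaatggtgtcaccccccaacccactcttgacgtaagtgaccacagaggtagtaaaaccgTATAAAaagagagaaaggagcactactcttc
Il17f, chr1:20784271-20784520, minus strand: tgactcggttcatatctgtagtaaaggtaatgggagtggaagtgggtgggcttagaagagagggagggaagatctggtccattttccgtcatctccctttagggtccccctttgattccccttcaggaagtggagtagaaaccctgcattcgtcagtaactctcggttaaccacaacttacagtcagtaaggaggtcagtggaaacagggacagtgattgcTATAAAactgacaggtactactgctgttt
Il22, chr10:118204714-118204963, plus strand: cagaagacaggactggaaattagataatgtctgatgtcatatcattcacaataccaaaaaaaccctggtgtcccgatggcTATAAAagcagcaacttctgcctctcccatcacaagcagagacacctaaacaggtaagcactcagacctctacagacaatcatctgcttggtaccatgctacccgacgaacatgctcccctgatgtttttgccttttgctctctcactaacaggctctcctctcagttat
Il23r, chr6:67491856-67492105, minus strand: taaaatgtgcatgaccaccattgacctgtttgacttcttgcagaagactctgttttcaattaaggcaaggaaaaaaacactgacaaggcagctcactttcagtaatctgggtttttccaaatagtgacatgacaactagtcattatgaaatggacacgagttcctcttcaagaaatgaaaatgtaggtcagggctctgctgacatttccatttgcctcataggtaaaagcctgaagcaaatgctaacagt
The letters begin 31 bases before the start in Il17a, 29 bases before it in Il17f and 170 bases before it in Il22. Il23r and Il17rc, the other members with an entry, did not hold them, so 3 of 5 members did, beside 4063 of 32851 promoters of this length (12.4%). A match is a description of letters and not of a bound site. In the annotation of build GRCm38, Il17a spans chr1:20730905-20734496 on the plus strand and Il17f chr1:20777146-20790617 on the minus strand, so the Il17f window lies inside the longer gene model of the annotation. The Il22 and Il17rc windows also run into the annotated gene, whose start lies upstream of the RefSeq start, and the distances above are counted from the RefSeq start. Il23r spans chr6:67422932-67491855, Il22 chr10:118204942-118210047, Il23a chr10:128296139-128298752, Il17rc chr6:113471427-113483140 and Il17ra chr6:120463247-120487559.

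In skin the cytokine transcripts came from lymphoid cells, and above all from 1725 γδ T-like cells. These cells were 5.95% of skin cells and held 13391 of 16549 Il17a UMIs (80.9%), 79.2% of 16054 Il17f UMIs, 73.0% of 3962 Il22 UMIs and 90.0% of 1828 Il23r UMIs over the 8 libraries. An unnamed lymphoid cluster, sub-cluster 3, held a further 10.2% of Il17a. Of its 107 cells with an Il17a UMI, 79 came from the SARATg bleomycin library, so this share leans on that library. The libraries labelled SARAWT with enough of its cells held 2 Il17a UMIs with PBS and 294 with bleomycin. Lymphoid sub-cluster 0 held 4.9% of Il17a and 18.8% of Il22. The mean level of Il22 in sub-cluster 0 was 21.7 CPM in libraries labelled SARAWT PBS and 43.6 CPM in SARAWT bleomycin libraries. With the SARATg libraries included it was 128 CPM, so that share leans on them. Sub-cluster 0, with 773 cells, raised 6 of 11 markers of group 2 innate lymphoid cells and was led by Il5, Il1rl1 and Il13, but Cd4 was among its leading genes and it held T cell receptor transcripts, so it is called by its number. Of its 102 cells with an Il17a UMI, 60.8% had one of Trac, 68.6% one of Trbc2 and 6.86% one of Il1rl1. These shares lean on the SARATg bleomycin library, where 80.4% of 56 such cells had Trac, 82.1% Trbc2 and 1.79% Il1rl1. In the SARAWT bleomycin libraries 33.3% of 39 such cells had Trac, 53.8% Trbc2 and 12.8% Il1rl1. Of the 671 cells of sub-cluster 0 without Il17a, 235 had Trac, 410 Trbc2 and 149 Il1rl1. Trbc2 was thus common with and without Il17a. The cytokine transcripts and that of the IL-23 receptor thus lay largely in the same class.

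The mean level of Il17a was 1339 CPM in γδ T-like cells, 167 CPM in the cycling lymphoid sub-cluster 7, 157 CPM in sub-cluster 0 and 250 CPM in sub-cluster 3, the classes being ordered by the mean of log2(CPM + 1). These means include the SARATg libraries. In sub-cluster 3 the means of the libraries labelled SARAWT were 2.21 CPM with PBS and 226 CPM with bleomycin. γδ T-like cells were above the next class in 6 of 6 libraries with enough cells (exact sign-flip permutation test, two-sided, p = 0.0312, the smallest it can give, and 0.594 after Benjamini-Hochberg adjustment over the neighbours tested for this gene in skin). The order was the same for Il17f, with 1231 CPM in γδ T-like cells and 6 of 6 libraries above sub-cluster 7. Il23r stood at 151 CPM in γδ T-like cells against 13.6 CPM in sub-cluster 0, again in 6 of 6 libraries. Below the first place, neighbouring lymphoid classes changed order for Il17a from library to library.

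**Figure D1:**
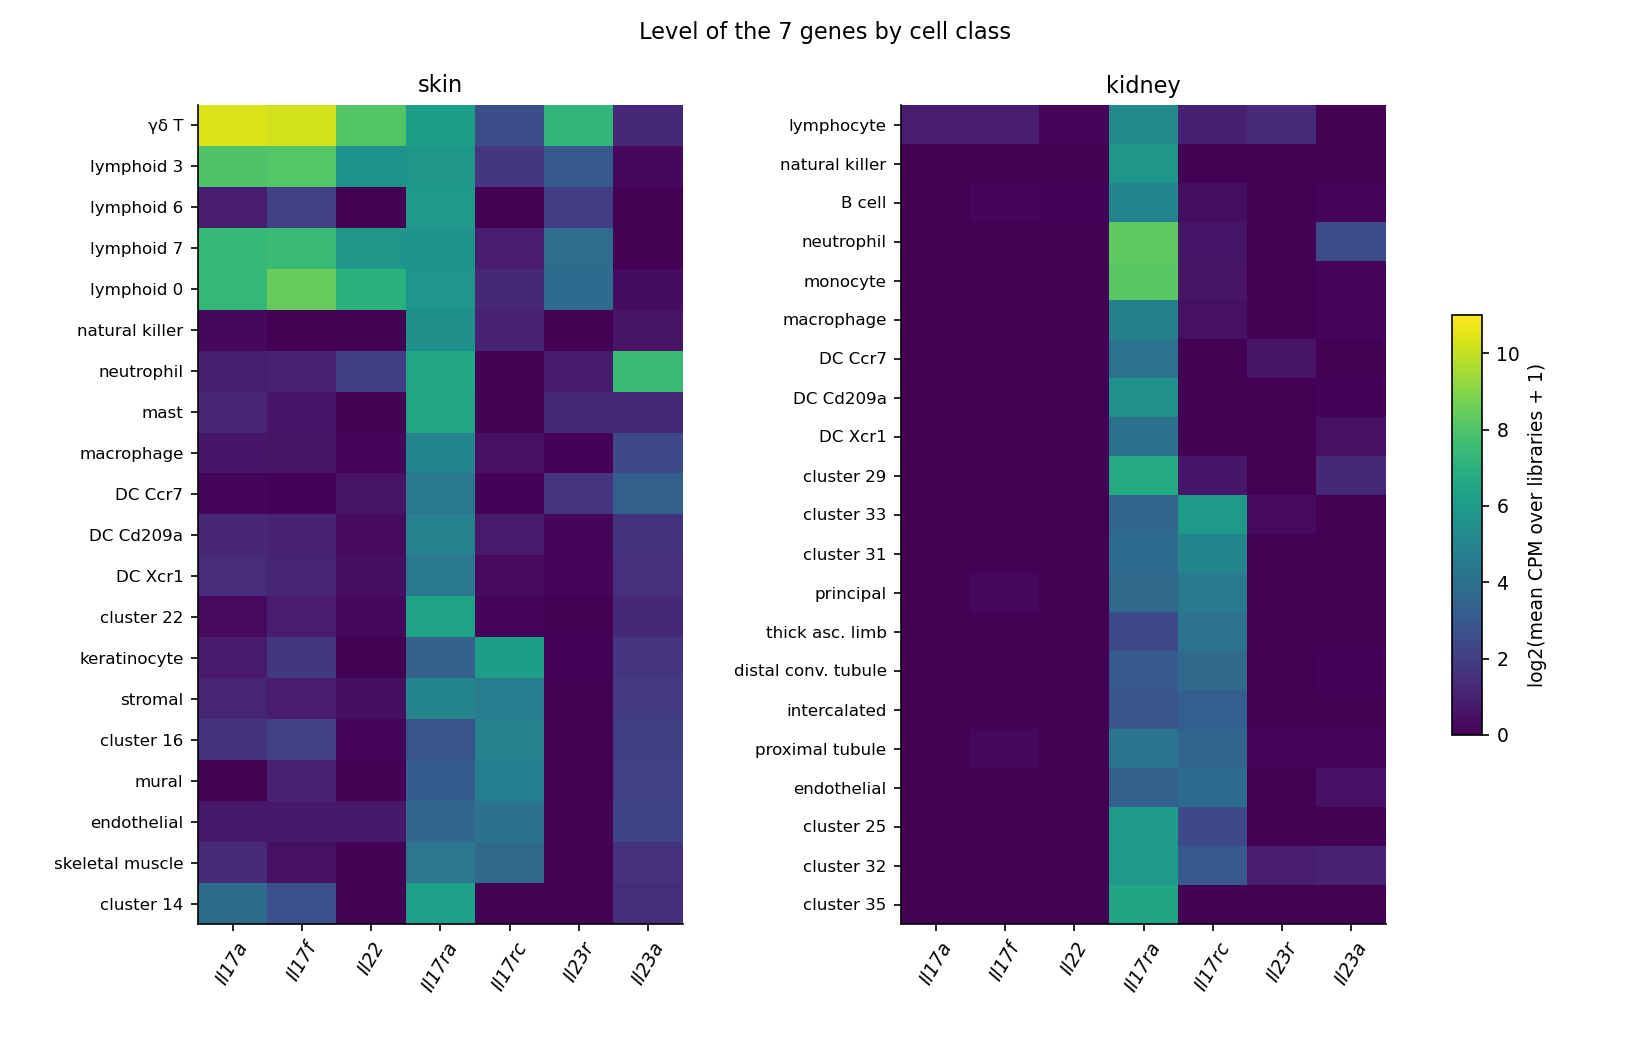
Mean level of each of the 7 genes (columns) in each skin and kidney class (rows), as log2 of the mean CPM over libraries plus 1; brighter squares are higher. In skin Il17a, Il17f, Il22 and Il23r peak in γδ T-like cells, Il17rc in keratinocyte-like cells and Il23a in neutrophil-like cells, and in kidney the 5 genes other than Il17ra and Il17rc average under 5 CPM in every class.

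Within γδ T-like cells, 936 of 1725 carried at least 1 Il17a UMI. Of these 936 cells, 94.3% had a UMI of Trdc, the δ chain constant region, and 52.7% had one of Il23r. Trbc2 was found in 76.3% of them and Trac in 24.9%. Among the 789 γδ T-like cells with no Il17a UMI the shares were 90.6% for Trdc and 51.1% for Il23r. For Trbc2 and Trac they were 78.5% and 27.4%. Il23r was thus found in cells with and without the cytokine. Cells with both Il17a and Il17f were 54.0%, 14.3% and 35.8% of γδ T-like cells in PBS 1, PBS 2 and the library labelled PBS 3, and 48.8%, 36.8% and 32.6% in bleomycin 1 to 3. PBS 2 held only 7 γδ T-like cells, and in every other library labelled SARAWT at least 32.6% of the cells carried both.

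Il22, whose protein acts on epithelium, was carried by fewer and more uneven cells. In PBS 1, PBS 2 and the library labelled PBS 3, 20.0%, 14.3% and 13.5% of γδ T-like cells had an Il22 UMI, and in bleomycin 1 to 3 the shares were 12.4%, 26.8% and 3.71%. A single cell held between 12.2% and 100% of a library's Il22 UMIs in this class. Bleomycin 2 stood above and bleomycin 3 below the rest, and the 2 treatments overlapped.

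Bleomycin against PBS was compared first over all sorted cells of the skin libraries labelled SARAWT, which asks whether the tissue's GFP+ fraction held more of each transcript. Il17a stood at 23.2, 18.9 and 33.6 CPM in PBS 1, PBS 2 and the library labelled PBS 3, and at 70.8, 87.7 and 81.7 CPM in bleomycin 1, 2 and 3. All 3 bleomycin libraries lay above all 3 controls. The means were 25.2 ± 7.55 and 80.0 ± 8.58 CPM (SD, n = 3 each), a log2 fold change of 1.77 with an SE of 0.27 and an adjusted p of 0.0522 by edgeR's quasi-likelihood test, just over the threshold of 0.05. Same-numbered skin libraries deviated together, though libraries 1 and 2 of the treatments also did so across numbers. With the replicate number as a block the log2 fold change was 1.82 with an adjusted p of 0.0214 by the same test. Without the library labelled PBS 3 it was 2.11 with an adjusted p of 0.0115, beside 7.07% of all genes called by the same test.

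The transcript lay in few cells of a library. Cells with an Il17a UMI numbered 45, 4 and 163 in PBS 1, PBS 2 and the library labelled PBS 3 and 105, 144 and 409 in bleomycin 1 to 3, and in PBS 2 1 cell held 77.0% of the 61 UMIs. The files of the first and second library of each treatment were made with another gene list (Cell Ranger 4.0.0 in their headers) than the rest (3.1.0). Within the former the CPM values were 18.9 and 23.2 against 70.8 and 87.7, and within the latter, with 1 library per treatment, 33.6 against 81.7. With the gene list as a covariate the log2 fold change was 1.83 with an adjusted p of 0.0119 by edgeR's quasi-likelihood test, beside 6.2% of all genes called.

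**Figure D2:**
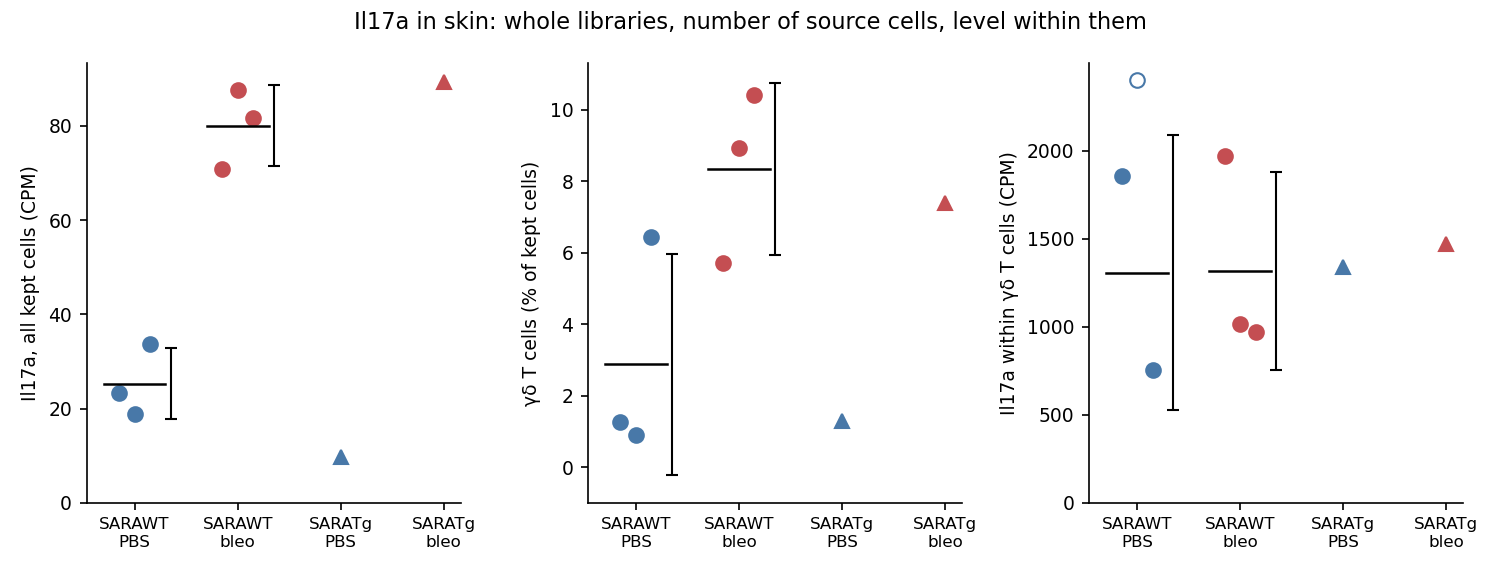
Il17a in CPM over all cells, γδ T-like cells as a percentage of cells, and Il17a in CPM within γδ T-like cells, in the 8 skin libraries (points; lines and bars give the mean and SD of the SARAWT groups; the open point, left out of both, has under 10 cells). Over all cells of the libraries labelled SARAWT, bleomycin sits at 70.8 to 87.7 CPM and the controls at 18.9 to 33.6 CPM. These controls include the library whose Zfyve9 level goes against its label, at 33.6 CPM. Within γδ T-like cells the treatments overlap.

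None of the 7 members passed the threshold over all skin cells by edgeR's quasi-likelihood test, where 0.0% of 15268 genes did. There were 2 members, Il17a and Il17f, at an unadjusted p under 0.05. Such counts are given here and below without the share of all genes or pairs at that level. They therefore do not set the members or the pathway apart from other genes. DESeq2 called 1, Il17a, beside 8.85% of all genes. With the replicate block 2 members passed, Il17a and Il23a, beside 4.31% of all genes. The groups did not overlap for Il17a and Il17ra, 2 of 7, beside 23.6% of all genes.

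Il17f, on the same chromosome as Il17a and its partner in the mixed dimer, stood at 27.7, 8.98 and 42.1 CPM in the controls and at 32.8, 95.7 and 80.1 CPM in bleomycin 1 to 3. The library labelled PBS 3 lay above bleomycin 1, so the groups overlapped (log2 fold change 1.49, SE 0.59, adjusted p = 0.241 by edgeR's quasi-likelihood test; without that library 2.07 and 0.0905). Il22 stood at 1.64, 22.9 and 6.09 CPM in the controls and at 4.02, 65.1 and 3.61 CPM in the bleomycin libraries, with the second library of each treatment far above the others. In PBS 2 all Il22 UMIs of γδ T-like cells lay in 1 cell, at 10029 CPM, while in bleomycin 2 51 γδ T-like cells had one. Il23r stood at 2.11, 1.55 and 7.03 CPM and at 5.22, 12.7 and 12.0 CPM (log2 fold change 1.47, SE 0.64, adjusted p = 0.28). Without the library labelled PBS 3 its log2 fold change was 2.59 with an adjusted p of 0.0404 by the same test, with 7.07% of all genes called.

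In the SARATg skin libraries, 1 per treatment and so without a test, Il17a stood at 9.70 CPM with PBS and at 89.4 CPM with bleomycin. The exact Poisson intervals were 8.88 to 10.6 CPM and 87.1 to 91.7 CPM, and they cover counting error only. Il17f stood at 8.97 and 86.4 CPM in the same libraries. The genotype-by-treatment term passed the threshold for none of the 7 members over all skin cells in edgeR's quasi-likelihood test (1 member at an unadjusted p under 0.05), beside 0.0% of 17965 genes, and for none of 48 pairs of member and class (4 at an unadjusted p under 0.05), beside 0.00378% of all pairs; DESeq2 was not run on this term.

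The number of source cells and the transcript per source cell were then set apart as far as sorted cells allow. γδ T-like cells were 1.27%, 0.902% and 6.45% of cells in PBS 1, PBS 2 and the library labelled PBS 3, and 5.71%, 8.92% and 10.4% in bleomycin 1 to 3. Both remaining controls lay far below every bleomycin library, and the library labelled PBS 3 lay above bleomycin 1. The mean share differed by 5.48 percentage points (exact permutation test, two-sided, p = 0.2, with 0.1 the smallest 3 against 3 can give), and by 7.27 points without the library labelled PBS 3 (p = 0.2, the smallest 2 against 3 can give). By pairs of the same number the share was higher with bleomycin in 3 of 3 pairs (exact sign-flip permutation test over pairs, two-sided, p = 0.25, the smallest it can give). In the SARATg libraries the shares were 1.28% with PBS and 7.39% with bleomycin. Within the first gene list the shares were 1.27% and 0.902% against 5.71% and 8.92%, and within the other 6.45% against 10.4%. A share of sorted cells moves with every other class; among lymphocytes alone the mean share of γδ T-like cells was 36.5% with PBS and 61.5% with bleomycin, with no overlap (exact permutation test, p = 0.1, again the smallest possible; the difference was 27.8 points without the library labelled PBS 3, p = 0.2).

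Per γδ T-like cell the level of Il17a did not separate the treatments. It was 1858 CPM in PBS 1 and 756 CPM in the library labelled PBS 3, and 1966, 1016 and 968 CPM in bleomycin 1 to 3, with PBS 2 left out of the test for its 7 cells. The log2 fold change was 0.02 with an SE of 0.42 (adjusted p = 1.0 by edgeR's quasi-likelihood test), and it turned to -0.39 without bleomycin 1 and to -0.50 without the library labelled PBS 3. In this class 0.0256% of 7815 genes passed the test and none of the 5 members tested did. A sum of UMIs over all cells cannot tell apart more cells of a type and more RNA per cell, so both are given here.

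The share of γδ T-like cells with an Il17a UMI was compared at 1 depth, each cell being thinned to 1000 UMIs. It was 36.7% in PBS 1 and 27.8% in the library labelled PBS 3, and 55.0%, 30.2% and 27.6% in bleomycin 1 to 3; 4 cells of PBS 2 reached this depth. Unthinned, the shares were 58.0% and 50.4%, and 72.7%, 57.9% and 49.3%. Bleomycin 1 stood above the others and the remaining libraries overlapped (difference of the means 5.32 points, exact permutation test, two-sided, p = 1.0, with 0.2 the smallest possible), and without bleomycin 1 the difference was -3.38 points. It was 0.865 points without the library labelled PBS 3, with PBS 1 as the only control. Macrophage-like cells, which should lack the gene, had an Il17a UMI in 0% to 0.128% of thinned and 0.218% to 0.866% of unthinned cells; their median depths ran from 1391 to 11372 UMIs and those of γδ T-like cells from 4178 to 8482.

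Il17f, Il22 and Il23r in γδ T-like cells also gave no call in the reported test. The replicate block alone gave a call, for Il22 and downward (log2 fold change -1.56). Same-numbered libraries correlated at 0.348 and 0.431 in these cells, but 2 pairs could not settle whether numbers pair the samples. Il17f stood at 2245 CPM in PBS 1 and 924 CPM in the library labelled PBS 3, against 968, 958 and 924 CPM in bleomycin 1 to 3, so that only PBS 1 stood apart (log2 fold change -0.73, SE 0.33, adjusted p = 0.999 by edgeR's quasi-likelihood test). Il22 stood at 143 and 112 CPM against 91.9, 740 and 22.4 CPM, so that the bleomycin libraries lay on both sides of the controls. Il23r varied little, with 176 and 155 CPM in the controls and 158, 147 and 143 CPM with bleomycin (log2 fold change -0.12, SE 0.25).

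The 1 call among the members in skin was Il17a in lymphoid sub-cluster 3. This cluster of 530 cells raised 8 of 12 αβ T cell markers but was led by genes of type 2 lymphoid cells such as Il5, Il13 and Il1rl1, and so has no name. PBS 2 had 2 cells of it and was left out. The cluster held 0 Il17a UMIs in the 23 cells of PBS 1 and 2 UMIs, in 1 of 64 cells, in the library labelled PBS 3, against 16 UMIs in 1 of 11 cells, 73 UMIs in 10 of 35 cells and 205 UMIs in 15 of 121 cells in bleomycin 1 to 3. The levels were thus 0 and 4.42 CPM against 187, 248 and 245 CPM. All 3 bleomycin libraries were far above both controls, as groups without overlap were for 21.3% of genes in this cluster, but few cells carried the transcript: 100%, 41.1% and 44.9% of the UMIs of bleomycin 1 to 3 lay in 1 cell each.

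The fitted log2 fold change was 6.04 with an SE of 0.58 and an adjusted p of 0.00475 by edgeR's quasi-likelihood test, and 0.168% of 4171 genes passed in this cluster. Since the controls held 2 UMIs in all, the fitted value depends on the prior count; summed over libraries the ratio was 76.4, with a 95% interval of 21.0 to 633 for counting error only. Without the library labelled PBS 3 only PBS 1, at 0, remained as control, and this lone library is assumed to vary like the bleomycin libraries (adjusted p = 0.00846, beside 1.04% of genes called). Without bleomycin 3 the adjusted p was 0.0997. The SARATg libraries held 5 UMIs (14.1 CPM) with PBS and 1388 UMIs (1055 CPM), in 79 of 221 cells, with bleomycin.

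Most cells of sub-cluster 3 that carried Il17a had αβ T cell receptor transcripts. There were 107 such cells over the 8 libraries, of which 79 came from the SARATg bleomycin library and 26 from the SARAWT bleomycin libraries. Of the 107, 92.5% had a UMI of Trac, the α chain constant region, 2.80% one of Il1rl1 and none one of Trdc, while 4.67% had one of Tcrg-C1, a γ chain constant region. Of the 423 cells of the cluster without Il17a, 83.0% had Trac, 26.7% Il1rl1, 1.18% Trdc and 1.89% Tcrg-C1. The coreceptors differed between the libraries: of the 26 SARAWT bleomycin cells 57.7% had a UMI of Cd4 and 26.9% one of Cd8b1, and of the 79 SARATg bleomycin cells 2.53% and 69.6%. That difference was not tested. Il17f stood at 22.2 and 13.3 CPM in this cluster in the controls against 23.4, 668 and 271 CPM with bleomycin (log2 fold change 4.30, SE 1.08, adjusted p = 0.357 by edgeR's quasi-likelihood test).

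Over all 13 skin classes with a testable member, 1 of 28 pairs of member and class passed edgeR's quasi-likelihood test, beside 0.313% of 97290 pairs of any gene and class. There were 10 pairs at an unadjusted p under 0.05, again without the share of all pairs. DESeq2 gave 2 calls, beside 1.65% of all pairs, and the replicate block gave 4 among 24 pairs, beside 1.9% of all pairs. The groups did not overlap in 10 pairs, beside 20.6% of all pairs. In lymphoid sub-cluster 0 Il17f stood at 10.9 and 63.6 CPM in PBS 1 and the library labelled PBS 3 and at 1392 and 137 CPM in bleomycin 2 and 3, without overlap, beside 32.1% of genes there (log2 fold change 4.08, SE 1.03, adjusted p = 1.0 by the same test). In bleomycin 2 that value came from 13 cells, with 60.8% of the UMIs in 1 cell. Without the library labelled PBS 3 the only control is PBS 1, assumed to vary like the bleomycin libraries, so the value then (log2 fold change 6.01, adjusted p = 1.74e-08, beside 1.1% of genes called) is no separate check.

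The receiving side was read from the receptor chains. IL-17RA is used by several cytokines of the family and was found in nearly every class, whereas IL-17RC, which sets the response to IL-17A and IL-17F, was highest in keratinocyte-like, cluster 16, stromal and mural cells and near 0 in myeloid cells. Of 2934 Il17rc UMIs in skin, keratinocyte-like cells held 40.8%, stromal cells 37.9% and cluster 16, a mix of Schwann cell and stromal markers, 11.9%. Of 9475 Il17ra UMIs, macrophage-like cells held 24.5%, Cd209a+ dendritic-like cells 19.9% and stromal cells 15.4%.

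Il17rc was highest in keratinocyte-like cells, at 68.9 CPM on average, then in cluster 16 at 28.4 CPM, stromal cells at 24.4 CPM and mural cells at 26.2 CPM by order of the mean log2 value. Skeletal muscle cells, at 13.1 CPM, and endothelial-like cells, at 16.2 CPM, followed, and γδ T-like cells held 5.28 CPM. Keratinocyte-like cells were above cluster 16 in 8 of 8 libraries (exact sign-flip permutation test, two-sided, p = 0.00781, the smallest it can give, and 0.148 after adjustment), while cluster 16, stromal and mural cells did not differ beyond their spread. Macrophage-like cells held 0 to 1.2 CPM. Il17ra was highest in neutrophil-like cells at 95.8 CPM, mast-like cells at 92.0 CPM, cluster 22 at 82.6 CPM and γδ T-like cells at 69.1 CPM, with no neighbours among these 4 past an unadjusted p of 0.05. For all 7 members together, 0 of 133 neighbours in skin passed after adjustment and 9 did at an unadjusted p under 0.05, by the exact sign-flip permutation test; no other tool was run on the order. A single pair of neighbours could not have passed on its own, since even the smallest p of this test is 0.148 after adjustment.

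In stromal cells the CPM of both chains separated the treatments, in opposite directions and short of the threshold, while the shares of cells with a UMI at 1 depth overlapped. Il17ra stood at 43.9, 52.3 and 46.0 CPM in PBS 1, PBS 2 and the library labelled PBS 3, and at 13.8, 23.8 and 26.9 CPM in bleomycin 1 to 3. Every bleomycin library lay below every control (log2 fold change -1.11, SE 0.26, adjusted p = 0.0749 by edgeR's quasi-likelihood test, where 0.27% of 10377 genes passed). Stromal libraries with the same number deviated together, and with the replicate block the log2 fold change was -1.15 with an adjusted p of 0.0380, beside 6.06% of genes called. DESeq2 gave an adjusted p of 0.0308, beside 6.29% of genes called. It was -1.08 (adjusted p = 0.145) without the library labelled PBS 3.

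Il17rc stood at 21.8, 24.8 and 12.4 CPM in the stromal cells of the controls and at 37.8, 29.4 and 27.4 CPM with bleomycin, again with no overlap (log2 fold change 0.80, SE 0.30, adjusted p = 0.173 by edgeR's quasi-likelihood test; without the library labelled PBS 3, 0.55 and 0.367). Groups did not overlap for 27.5% of the genes tested in stromal cells. The median depth of stromal cells was 11262, 1094 and 13439 UMIs in the controls and 1196, 1118 and 8990 UMIs in bleomycin 1 to 3. With each cell thinned to 1000 UMIs, 3.04%, 3.49% and 4.60% of control cells and 3.75%, 0.848% and 5.93% of bleomycin cells had an Il17ra UMI, and 3.20%, 2.33% and 0.862% against 1.25%, 0% and 2.54% had an Il17rc UMI. These shares rest on 0 to 19 cells with a UMI among 80 to 593 cells per library, the treatments overlapped for both genes, and the direction seen for the CPM of Il17rc was not seen in them. Unthinned, the shares were 32.1%, 14.6% and 32.95% against 16.1%, 10.8% and 23.6% for Il17ra, and 23.8%, 11.4% and 15.3% against 30.8%, 13.6% and 28.4% for Il17rc, again with overlap. In the SARATg libraries Il17ra stood at 29 CPM with PBS and 11 CPM with bleomycin, and Il17rc at 17.2 and 24.0 CPM.

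**Figure D3:**
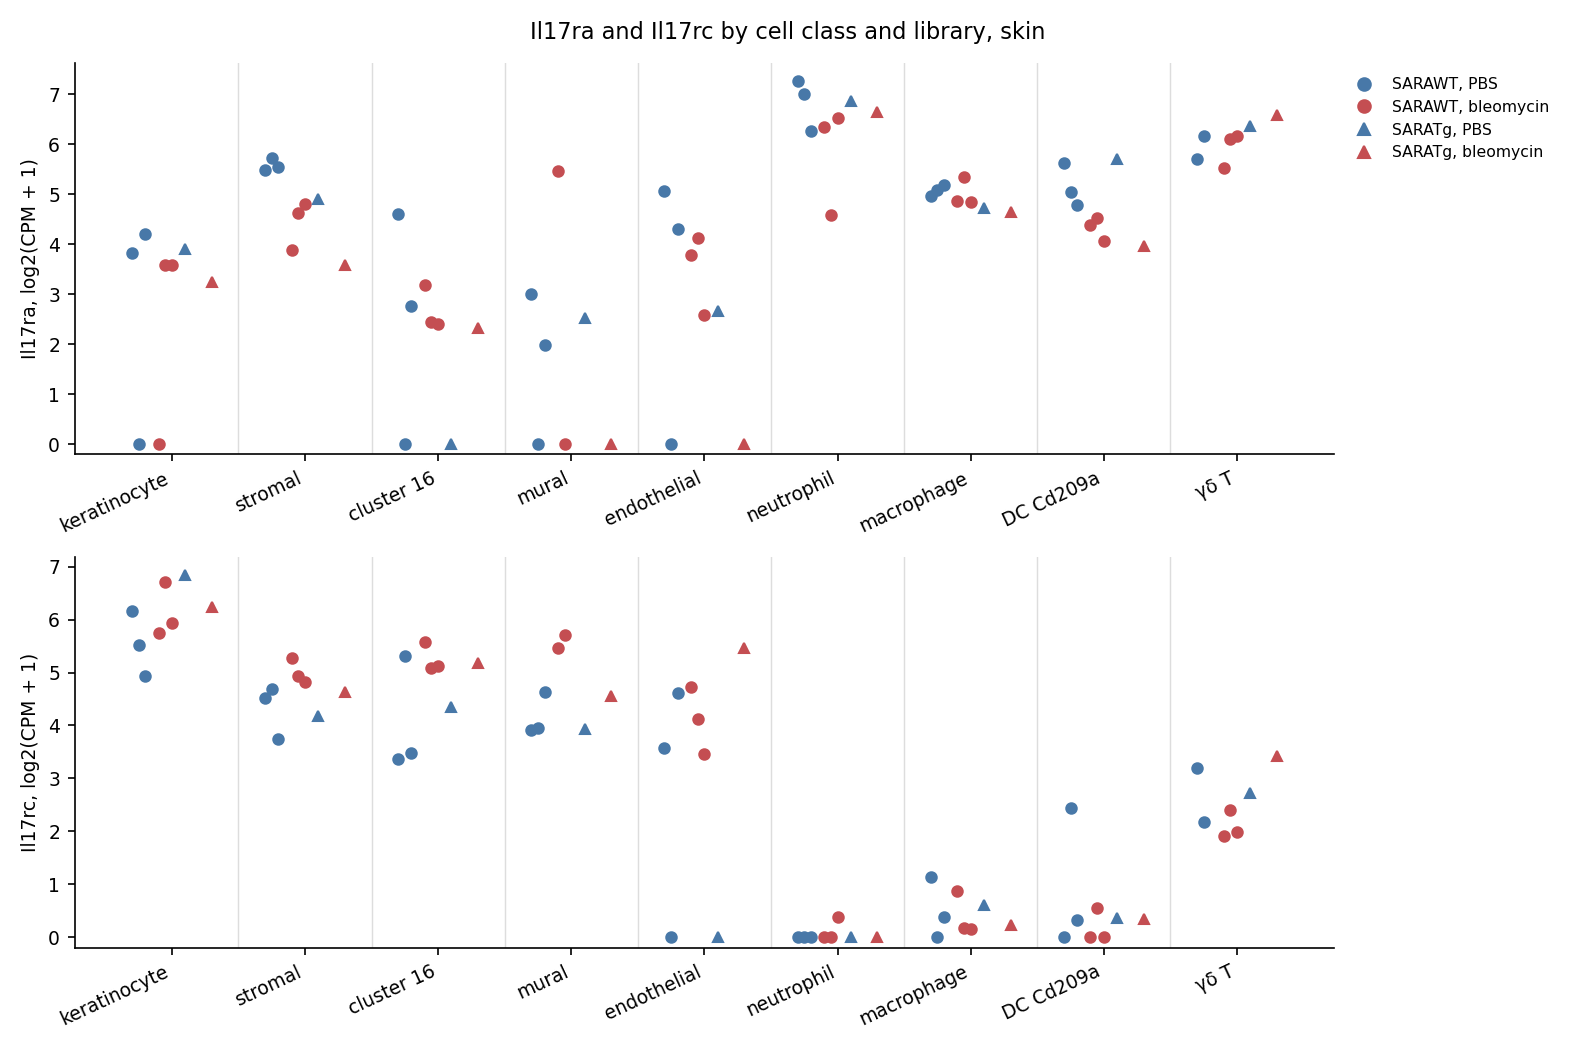
Il17ra (top) and Il17rc (bottom) in 9 skin classes, as log2(CPM + 1) per library (points coloured by treatment, circles SARAWT, triangles SARATg). In stromal cells Il17ra sits at 43.9 to 52.3 CPM in the controls labelled SARAWT and at 13.8 to 26.9 CPM with bleomycin. Il17rc sits at 12.4 to 24.8 CPM and at 27.4 to 37.8 CPM in the same order. These controls include the library whose Zfyve9 level goes against its label, which holds 12.4 CPM of Il17rc.

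Other receiving cells gave no call. In skeletal muscle cells Il17ra stood at 53.4, 21.8 and 23.9 CPM in PBS 1, PBS 2 and the library labelled PBS 3, and at 6.38, 11.9 and 16.7 CPM in bleomycin 1 to 3. The groups did not overlap, beside 18.7% of genes in these cells, but the PBS 2 value is 1 UMI in 24 cells (log2 fold change -1.53, SE 0.53, adjusted p = 0.199 by edgeR's quasi-likelihood test). Il17ra stood at 48.1, 32.3 and 26.5 CPM in the Cd209a+ dendritic-like cells of the controls and at 19.8, 21.9 and 15.7 CPM with bleomycin, without overlap, beside 19.8% of genes in these cells (log2 fold change -0.88, SE 0.26, adjusted p = 0.267 by edgeR's quasi-likelihood test). In macrophage-like cells it stood between 28.0 and 39.8 CPM in the 6 libraries labelled SARAWT. Il17rc in keratinocyte-like cells was 70.9, 44.9 and 29.7 CPM with PBS and 52.9, 104 and 60.04 CPM with bleomycin, with overlap (log2 fold change 0.67, SE 0.38, adjusted p = 0.539). In cluster 16 it was 9.31, 38.9 and 10.1 CPM against 47.1, 32.8 and 34.0 CPM (log2 fold change 1.57, SE 0.47, adjusted p = 0.101 by edgeR's quasi-likelihood test), and without PBS 2, the highest control, it passed (2.04, adjusted p = 0.0391, beside 4.14% of genes called there). The cells of cluster 16 were deeper with bleomycin, and whether the same kinds of cells filled it in both treatments was not tested.

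Il23a, the p19 chain of IL-23, was highest in neutrophil-like cells. They held 62.3% of 2339 Il23a UMIs in skin, and macrophage-like cells 18.7%. The mean level was 171 CPM in neutrophil-like cells and 8.94 CPM in Ccr7+ dendritic-like cells, the next class, with the former higher in 6 of 8 libraries. The class itself raised 12 of 12 neutrophil markers. Bleomycin 3 alone held 1167 of its 1458 Il23a UMIs, and without that library neutrophil-like cells held 30.8% of the remaining 945 UMIs and macrophage-like cells 29.9%.

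In neutrophil-like cells Il23a stood at 0, 0 and 154 CPM in PBS 1, PBS 2 and the library labelled PBS 3, with 24, 10 and 292 cells, and at 263, 529 and 346 CPM in bleomycin 1 to 3, with 89, 15 and 1250 cells. The bleomycin libraries lay above all controls, beside 13% of genes without overlap in these cells, but the controls at 0 held few cells (log2 fold change 1.88, SE 0.68, adjusted p = 0.777 by edgeR's quasi-likelihood test, where 0.0% of 1763 genes passed). Both remaining controls are at 0 without the library labelled PBS 3 (adjusted p = 0.0657). In bleomycin 2 82.6% of the 23 UMIs lay in 1 cell. The SARATg libraries held 28.8 CPM with PBS and 50.5 CPM with bleomycin, both below the library labelled PBS 3.

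Over all skin cells Il23a stood at 1.86, 1.24 and 6.83 CPM in the controls and at 5.22, 3.11 and 25.7 CPM with bleomycin. Each bleomycin library lay above the control of the same number, and the groups overlapped (log2 fold change 1.74, SE 0.94, adjusted p = 0.379; with the replicate block 1.78 and 0.0230, by edgeR's quasi-likelihood test). Neutrophil-like cells were 0.609%, 1.29% and 6.54% of cells in the controls and 4.20%, 0.704% and 20.1% in bleomycin 1 to 3, and their part in this result was not tested. Bleomycin 3 decided the size: without it the log2 fold change was 0.32 (adjusted p = 0.865), and without the library labelled PBS 3 it was 3.00 (adjusted p = 0.138).

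**Figure D4:**
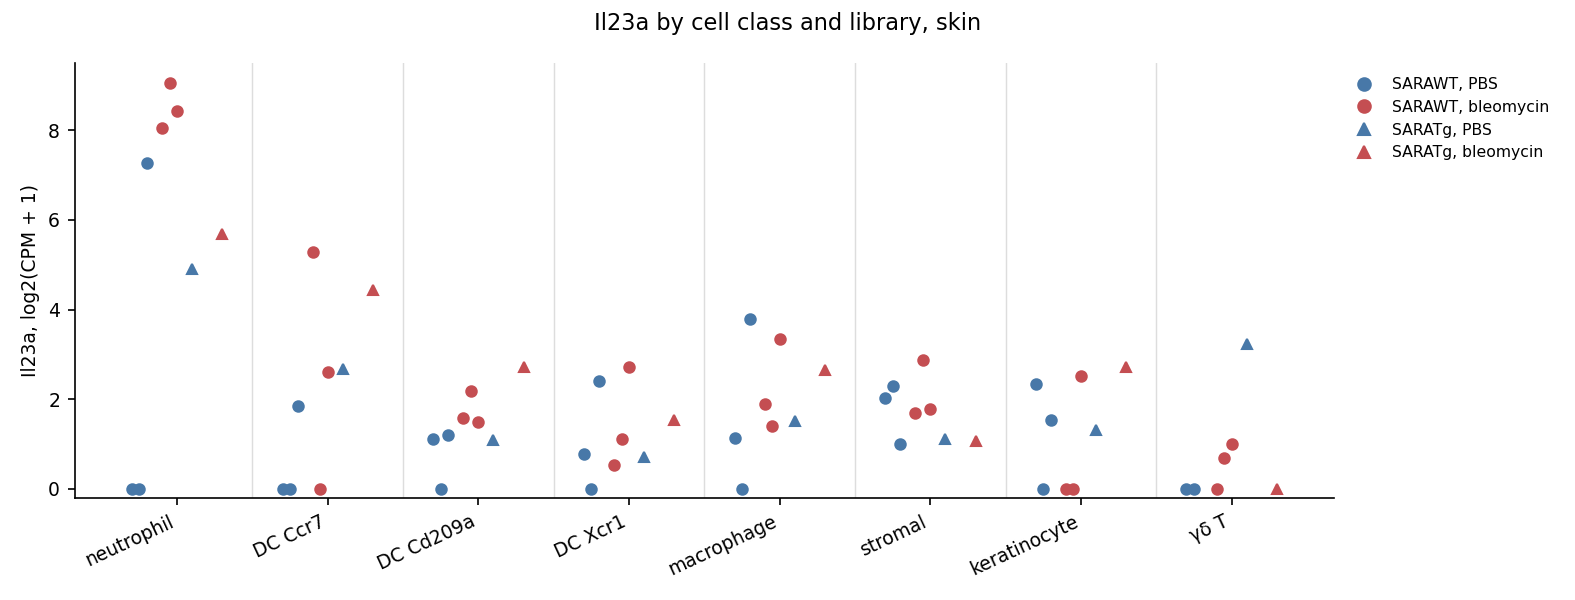
Il23a in 8 skin classes, as log2(CPM + 1) per library (points coloured by treatment, circles SARAWT, triangles SARATg). Il23a in neutrophil-like cells is at 0 in PBS 1 and PBS 2, at 154 CPM in the library labelled PBS 3 and at 263 to 529 CPM with bleomycin.

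IL-23 also needs p40, encoded by Il12b. Of 2173 neutrophil-like cells 256 (11.8%) had an Il23a UMI and 0 had an Il12b UMI, which allows a share of up to 0.138% of cells with a UMI. Of 415 Ccr7+ dendritic-like cells 13 had Il23a, 115 had Il12b and 5 had both, and over all 28978 skin cells 14 had UMIs of both genes. Among 1725 γδ T-like cells, which should lack both, 0.348% had an Il23a UMI and 0 an Il12b UMI. Among 1061 keratinocyte-like cells 3.68% had an Il23a UMI and 0 an Il12b UMI. The Il23a share of Ccr7+ dendritic-like cells, 3.13%, was thus no higher than that of keratinocyte-like cells. Median depths were 2558 UMIs in neutrophil-like, 13627 in Ccr7+ dendritic-like, 6581 in γδ T-like and 14954 in keratinocyte-like cells. A cell without a UMI of a gene may still express it.

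The rest of the pathway was read from a list of 56 genes. Over all skin cells 49 were tested and none passed edgeR's quasi-likelihood test, with 7 at an unadjusted p under 0.05 and 3 called by DESeq2, beside 8.85% of all genes. Across 17 skin classes 5 of 369 pairs of gene and class passed, all lower with bleomycin, beside 0.313% of pairs of any gene and class, and 83 had an unadjusted p under 0.05. By role, 3 of 149 pairs of signalling genes, 1 of 38 of inducers and 1 of 92 of target genes passed, and none of 3 of other ligands, 18 of other receptors or 69 of the type 17 programme (Rora, Maf, Ccr6 and others).

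Among signalling genes, Cebpb, a transcription factor that IL-17 signalling raises, fell in mural cells, at 3434, 5069 and 3382 CPM in the controls against 583 and 409 CPM in bleomycin 2 and 3 (log2 fold change -2.94, SE 0.32, adjusted p = 0.00409 by edgeR's quasi-likelihood test, where 0.0767% of 1304 genes passed). These bleomycin values rest on 27 UMIs in 12 cells and 24 UMIs in 10 cells. Bleomycin 1, left out of the test for its 6 cells, stood at 1099 CPM. The SARATg libraries held 1168 CPM with PBS and 362 CPM with bleomycin. The adjusted p of Cebpb was 0.0051 without the library labelled PBS 3, beside 0.184% of genes, and the call was lost without PBS 2 (0.0522) or bleomycin 3 (0.136). In cluster 16 Cebpd, its relative, fell by 1.63 on the log2 scale (adjusted p = 0.0315) and Stat3, which carries IL-22 and IL-23 signals, fell by 1.46 (adjusted p = 0.0171), by the same test, beside 3.36% of 7314 genes. The cells of this cluster were deeper with bleomycin. In the controls 68, 42 and 71 cells held 214884, 102759 and 693960 UMIs. In bleomycin 1 to 3, 108, 54 and 183 cells held 1975696, 670223 and 3235970 UMIs. Whether the same kinds of cells filled cluster 16 in both treatments was not tested. Cebpd lost the call with any 1 of the 6 libraries left out (adjusted p 0.0546 to 0.147), and Stat3 lost it without bleomycin 1 (0.144), 2 (0.088) or 3 (0.0505) and kept it without the library labelled PBS 3 (0.0299, beside 0.954% of genes). The inducer Il6, which favours type 17 differentiation, stood at 630, 136 and 1603 CPM in endothelial-like cells with PBS and at 0, 16.4 and 20.1 CPM with bleomycin (adjusted p = 0.0399, beside 0.596% of 2516 genes). This call too was lost when 1 library was left out, with adjusted p up to 0.175 and 0.0702 without the library labelled PBS 3, except without PBS 2 (0.0171). Summed over libraries, control exceeded bleomycin 75.0-fold (32 to 232, counting error only).

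Csf2, which encodes GM-CSF and is counted here as a target, fell in lymphoid sub-cluster 3, the cluster in which Il17a rose. It stood at 4517 CPM in PBS 1 and 913 CPM in the library labelled PBS 3, and at 0, 6.78 and 7.17 CPM in bleomycin 1 to 3 (adjusted p = 0.00475 by edgeR's quasi-likelihood test; 0.136 without bleomycin 3). Without the library labelled PBS 3 the adjusted p was 3.86e-06, beside 1.04% of genes, but PBS 1 is then the only control and is assumed to vary like the bleomycin libraries, so this is no separate check. Summed over libraries, control exceeded bleomycin 295-fold (149 to 685, counting error only). The SARATg libraries held 2598 CPM with PBS and 35 CPM with bleomycin. The cells of sub-cluster 3 thus differed in more than Il17a between treatments, and whether the same kinds of cells filled it in both was not tested.

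In the kidney the cytokines were almost absent from the sorted cells. Over 9 libraries and 58140 cells there were 45 Il17a UMIs, 96 of Il17f, 7 of Il22, 60 of Il23r and 82 of Il23a. All 45 Il17a UMIs lay in lymphocyte-like cells, and 73.3% of the Il23r UMIs did. Of the Il17f UMIs 37.5% lay in lymphocyte-like cells and 57.3%, 55 UMIs, in proximal tubule cells, where 39 of them came from vehicle 1 and 2; the mean level was 0.827 CPM in the former and 0.169 CPM in the latter. Per library there were 0, 7 and 10 Il17a UMIs in vehicle 1 to 3, 11 in the library labelled aristolochic acid 1, and 3 and 9 in aristolochic acid 2 and 3. Il23a in neutrophil-like cells had 0, 0 and 1 UMI in vehicle 1 to 3 (0, 0 and 1.92 CPM), 4 in the library labelled aristolochic acid 1 (3.91 CPM) and 3 and 1 in aristolochic acid 2 and 3 (29.7 and 7.38 CPM). The treatments did not overlap, beside 12.2% of the genes tested in these cells, but the gene was too low to be tested and the SARATg libraries held 0. Most Il17a UMIs came from single cells, with 90.9% to 100% of the Il17a UMIs of a library labelled SARAWT aristolochic acid in 1 cell.

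No γδ T cell cluster could be named in the kidney at the reported resolution of 0.8. At resolution 1.2, 1 lymphocyte sub-cluster of 1026 cells raised 3 of 10 γδ T cell markers and took that name. It held 138 CPM of Trdc and 749 CPM of Trac, and was not used here. Kidney γδ T-like cells were instead counted by their own markers. This gate found 9, 7 and 9 γδ T-like cells in vehicle 1 to 3, and 15, 5 and 13 in the library labelled aristolochic acid 1 and in aristolochic acid 2 and 3. They held 0, 7 and 0 Il17a UMIs in vehicle 1 to 3. In the library labelled aristolochic acid 1 and in aristolochic acid 2 and 3 they held 0, 3 and 0. The mean shares were 0.108% and 0.201% of cells, a difference of 0.0935 points (exact permutation test, two-sided, p = 0.2, with 0.1 the smallest possible), and 0.0852 points without the library labelled aristolochic acid 1 (p = 0.4 by the same exact test). Of the lymphocyte sub-clusters at resolution 0.8, 1 with 1748 cells held 24 of the Il17a, 22 of the Il17f and 31 of the Il23r UMIs.

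The receptor chains were well covered in the kidney. Of 16610 Il17ra UMIs, monocyte-like cells held 4975, proximal tubule cells 22.4%, lymphocytes 14.7% and macrophages 12.3%. The mean level was 312 CPM in neutrophil-like cells and 287 CPM in monocyte-like cells, which did not differ beyond their spread. Monocyte-like cells lay above the next class, cluster 29, at 103 CPM, in 8 of 8 libraries (exact sign-flip permutation test, two-sided, p = 0.00781, and 0.148 after adjustment). None of 123 neighbours in the kidney passed after adjustment, and 5 had an unadjusted p under 0.05.

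Il17rc was low in the kidney's leukocytes. Proximal tubule cells, the most numerous class, held 70.2% of 2506 Il17rc UMIs, but the highest level was in cluster 33, at 61.7 CPM, whose 175 cells carried the urothelial genes Upk3a and Krt7. Cluster 31, of stromal and mural markers, followed at 30.9 CPM, principal cells of the collecting duct at 21.7 CPM and thick ascending limb cells at 17.3 CPM. Endothelial-like cells, at 13.2 CPM, stood beside distal convoluted tubule cells, at 13.1 CPM, and intercalated cells held 8.62 CPM, against under 1 CPM in lymphocyte-like, monocyte-like and macrophage-like cells. Cluster 33 was above cluster 31 in 5 of 5 libraries, and cluster 31 above principal cells in 5 of 5 (exact sign-flip permutation test, p = 0.0625 each, the smallest possible).

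Aristolochic acid against vehicle gave no call among the members in kidney. Over all cells, Il17ra stood at 18.1, 17.3 and 43.7 CPM in vehicle 1 to 3, at 63.7 CPM in the library labelled aristolochic acid 1 and at 36.9 and 54.4 CPM in aristolochic acid 2 and 3. Vehicle 3 lay among the treated libraries (log2 fold change 0.86, SE 0.44, adjusted p = 0.435 by edgeR's quasi-likelihood test, where 0.0% of 15732 genes passed). Of the 3 members tested over all cells none passed, 0 had an unadjusted p under 0.05 and DESeq2, which called 0.426% of all genes, called 0 of them.

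Vehicle 3 decided this comparison. It held 47.6% lymphocytes and 13.7% proximal tubule cells, against 4.76% and 4.94% lymphocytes and 80.8% and 75.5% proximal tubule cells in vehicle 1 and 2 and 50.9% to 62.9% lymphocytes in the libraries labelled SARAWT aristolochic acid. Without vehicle 3, Il17ra over all cells gave a log2 fold change of 1.39 with an adjusted p of 0.0273 by edgeR's quasi-likelihood test, when 33.1% of 16158 genes passed. Without the library labelled aristolochic acid 1 it gave 0.70 with an adjusted p of 0.736. The part of the cell makeup in these values was not tested.

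Within classes, 0 of 11 pairs of member and class passed edgeR's quasi-likelihood test in kidney, beside 0.00946% of 105731 pairs of any gene and class, with 1 at an unadjusted p under 0.05 and 0 by DESeq2, beside 0.324% of all pairs. In macrophage-like cells Il17ra stood at 12.9, 5.58 and 37.7 CPM in vehicle 1 to 3, at 46.5 CPM in the library labelled aristolochic acid 1 and at 37.9 and 56.9 CPM in aristolochic acid 2 and 3, where vehicle 3 reached almost to the lowest treated library and the groups did not overlap, beside 12.3% of genes in these cells (log2 fold change 1.14, SE 0.60, adjusted p = 0.703; without vehicle 3, 2.50 and 0.0152, when 11.6% of genes passed; without the library labelled aristolochic acid 1, 1.16 and 0.881). In proximal tubule cells it stood at 15.6, 12.3 and 19.4 CPM against 22.8, 21.1 and 29.6 CPM in the same order, without overlap, beside 16.3% of genes (log2 fold change 0.42, SE 0.23, adjusted p = 0.553; without the library labelled aristolochic acid 1, 0.46 and 0.78). The groups did not overlap in 3 pairs, beside 16.2% of all pairs.

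Il17rc in proximal tubule cells stood at 5.46, 4.88 and 12.7 CPM in vehicle 1 to 3 and at 15.2, 10.4 and 16.9 CPM in the library labelled aristolochic acid 1 and aristolochic acid 2 and 3, with vehicle 3 again among the treated libraries (log2 fold change 0.68, SE 0.41, adjusted p = 0.557 by edgeR's quasi-likelihood test; without the library labelled aristolochic acid 1, 0.61 and 0.782). In monocyte-like cells Il17ra was 286, 244 and 287 CPM with vehicle and 316, 203 and 263 CPM with aristolochic acid, and in neutrophil-like cells the groups overlapped likewise. Of the 56 other pathway genes, 0 of 253 pairs of gene and class passed in kidney, with 29 at an unadjusted p under 0.05 and 3 by DESeq2, beside 0.00946% of all pairs by edgeR's quasi-likelihood test and 0.324% by DESeq2.

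**Figure D5:**
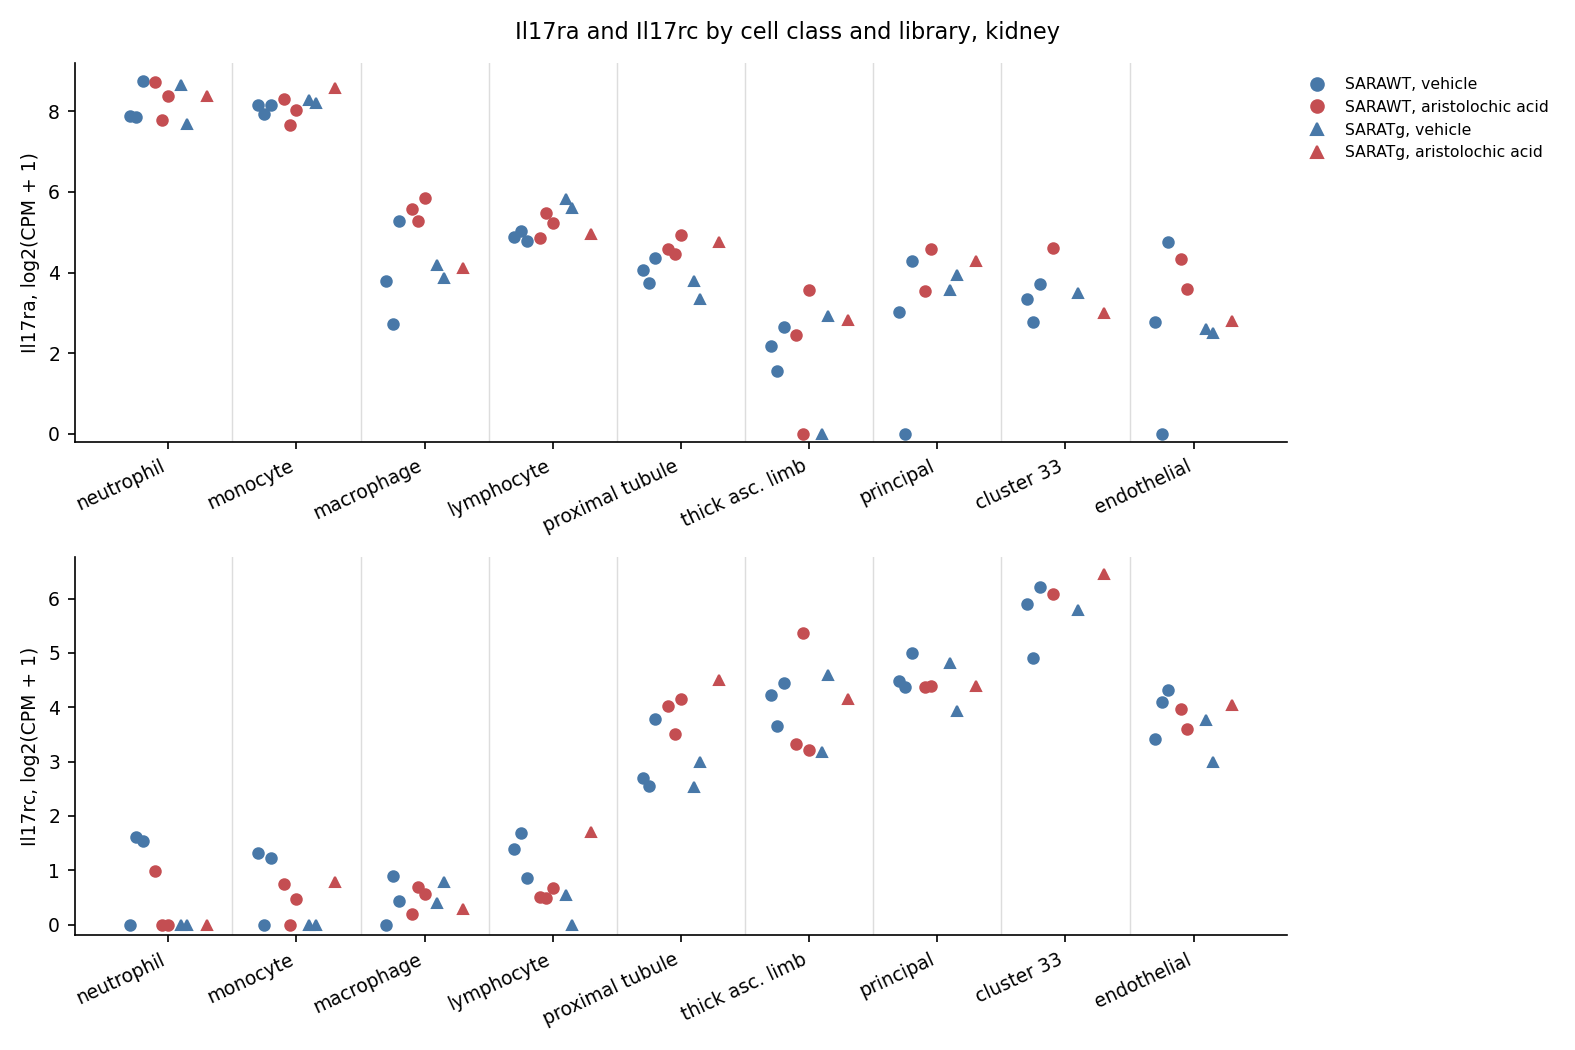
Il17ra (top) and Il17rc (bottom) in 9 kidney classes, as log2(CPM + 1) per library (points coloured by treatment, circles SARAWT, triangles SARATg). Among the libraries labelled SARAWT, vehicle 3, at 37.7 CPM of Il17ra in macrophage-like cells, sits just below the aristolochic acid libraries, and vehicle 1 and 2, at 12.9 and 5.58 CPM, sit lower.

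In the kidney libraries labelled SARATg the 2 levels below were higher with aristolochic acid, which had 1 library. Il17ra over all cells was 30.8 and 33.7 CPM in the 2 SARATg vehicle libraries and 45.2 CPM in the library labelled SARATg aristolochic acid 1, and Il17rc in proximal tubule cells was 4.77, 6.93 and 21.8 CPM. The genotype-by-treatment term passed for none of 20 pairs of member and class (2 at an unadjusted p under 0.05, edgeR's quasi-likelihood test), beside 0.00153% of all pairs; DESeq2 was not run on this term.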

How the data were processed

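GFP+ cells sorted after a Liberase digest were profiled with the 10x Genomics 3′ v3 protocol. The deposited files hold raw UMI counts per gene and barcode from the authors' Cell Ranger runs against mm10 (submitters' notes: Cell Ranger 3.0.2 and Seurat 2.3.4; file headers: 3.1.0 and 4.0.0 in skin, 3.0.2 in kidney). Their cell annotation was not used here. The 7 genes and all lists were chosen with earlier results of these data known.

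A cell was used if it had 200 or more genes and no more than 20% of UMIs from mitochondrial genes (28978 skin and 58140 kidney cells). Predicted doublets, ranked by Scrublet in scanpy 1.11.5 and removed at 0.8% per 1000 cells, numbered 1107 and 3604. Seurat 5.3.0 integrated the libraries of a tissue (2000 variable genes, 30 components, resolution 0.8), with 63 pathway genes held out. Clusters were named from fixed markers, of which at least 3 had to be raised; unsettled clusters kept numbers, as did those in which Siglech, or for natural killer names Cd3e, went against the name (rules set after the clusters were seen). Lymphoid sub-cluster 0, named by its markers but holding T cell transcripts, is called by its number. UMIs were summed per library and class of at least 10 cells and tested with edgeR 4.0.16 (quasi-likelihood test, TMM, filterByExpr, two-sided, SARAWT libraries, Benjamini-Hochberg over all genes tested, threshold 0.05), with DESeq2 1.42.0 as alternative. CPM are UMIs per 1000000 of the class in that library. Intervals are 95% exact Poisson or Clopper-Pearson ones; floors are 3 counts. These tests were checked on simulated counts.

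Same-numbered libraries labelled SARAWT shared deviations from their group means (every correlation over 0.1) over all skin cells (0.124 to 0.548). The same held in macrophage-like, Cd209a+ dendritic-like, neutrophil-like and stromal cells, and the replicate block rests on this. Over all skin cells the numbers did not set the first 2 pairs apart. There PBS 1 correlated with bleomycin 2 at 0.200, and PBS 2 with bleomycin 1 at 0.226. Library 3 of each treatment, with the other gene list, correlated negatively with the libraries of another number. In the kidney same-numbered libraries did not deviate together (-0.387 to 0.419 over all cells). Named beside the members were up to 5 pathway genes per direction and class past the threshold, and for Il17a, Il17rc and Il23a the 5 genes most alike across classes. Genes not shared by all gene lists were left out. Promoters came from RefSeq tables of GRCm38.p6, in which 5 of 7 members matched. A further gene of the pathway, and a motif searched with it, are not reported here.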

Additional observations from a re-analysis of the deposited data

How the results depend on the processing

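Over all skin cells 0 members passed in the reported test, 1 with DESeq2, with RLE size factors, without the filter on low counts or with both genotypes, and 2 with the replicate block, which pairs libraries of the same number, or with the gene list as covariate; leaving out 1 library gave 0 to 2 (2 without the library labelled PBS 3). The shares of all genes called were 0.0% in the reported test, 7.07% without that library and 8.85%, 0.635%, 1.75%, 4.12%, 4.31% and 6.2% under the 6 settings named before, in that order. By skin class the 1 call (0.313% of all pairs of gene and class) became 2 with DESeq2 (1.65% of all pairs) or with cells gated by markers (0.982%), 3 with the gene list (1.12%), 4 with the replicate block (1.9%) or both genotypes (2.92%), 7 of 97 pairs with no filter (1.44%) and 0 to 2 with 1 library left out (0 without bleomycin 3; 0.0115% to 0.916% of all pairs). In kidney, leaving out 1 library gave 0 to 1 over all cells and 0 to 2 by class (Il17ra in macrophage-like cells and Il23r in lymphocytes, both without vehicle 3, when 11.6% of genes passed in the former class, 15.5% in the latter and 5.12% of all pairs). The 5 calls among other pathway genes in skin (all pairs have the shares just given for each setting) became 24 with DESeq2, 69 with no filter, 26 with the block, 15 with the gene list, 30 with both genotypes, 3 without shared barcodes (0.115% of all pairs), 10 with gated cells and 0 to 14 with 1 library left out; the 0 in kidney became 3, 18 and 1 with DESeq2, no filter and the block, beside 0.324%, 0.949% and 0.0861% of all pairs, and 0 to 27 with 1 library left out (27 without vehicle 3, beside 5.12%).

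The difference in the share of γδ T-like cells stayed positive, at 4.44 to 7.27 points with 1 library left out. That in the share with an Il17a UMI ran from -3.38 (without bleomycin 1) to 10.3. Log2 fold changes over all skin cells ran, with 1 library left out, from -1.19 (without bleomycin 2) to 2.73 for Il22, from -0.297 to 0.0114 (without bleomycin 1) for Il17ra and from -0.515 to 0.0344 (without bleomycin 3) for Il17rc. In γδ T-like cells they ran from -0.50 (without the library labelled PBS 3; -0.39 without bleomycin 1) to 0.865 for Il17a, from -1.24 to 0.11 (without PBS 1) for Il17f, from -1.21 (without bleomycin 2) to 1.77 for Il22 and from -0.241 to 0.0130 (without PBS 1) for Il23r. There the gene list turned Il17a to -0.0246 and Il22 to -0.26, and gating by markers turned Il23r to 0.0666. The replicate block turned Il22 to -1.56 in these cells (adjusted p = 2.59e-05 by edgeR). With 2 pairs there, whether numbers pair the samples could not be settled. The causes were not tested. Of 377 values for 23 single results, 346 kept their direction and side of the threshold. The order of classes gave 0 neighbours past the threshold in each alternative too, which says nothing on stability, since the exact test could seldom pass after adjustment. A paired test of the share of γδ T-like cells, chosen after seeing the data, gave the same difference (p = 0.25 in an exact test over sign flips, its lowest possible value). The planned kidney share of γδ T-like clusters was not given, since no such cluster could be named at resolution 0.8. The sub-cluster named so at resolution 1.2 was not used. Counting error is wide for the kidney cytokines, with 7 to 96 UMIs each.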

Other observations

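The other receptors and ligands of the family had their own classes in skin. Il17re, which pairs with IL-17RA to bind IL-17C, was highest in γδ T-like cells at 28.0 CPM and keratinocyte-like cells at 25.9 CPM, while Il17c itself, its ligand, had 4 UMIs in all skin cells. Il17rb, the receptor chain for IL-25, was highest in lymphoid sub-cluster 0 at 9.41 CPM, and Il25 had 34 UMIs. Il22ra1, the chain through which IL-22 acts on epithelium, had 12 UMIs, all but absent from these sorted cells, and Il22ra2, the soluble decoy, stood at 9.12 CPM in keratinocyte-like cells. Ccr6, the chemokine receptor of type 17 cells, was higher in lymphoid sub-cluster 0, at 141 CPM, than in γδ T-like cells, at 60.5 CPM.

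γδ T-like cells fell into 3 sub-clusters, made without the pathway genes. Those numbered 1, 2 and 5 raised 8, 5 and 4 of 10 γδ T cell markers. In bleomycin 3 the levels of Il17a were 1221, 619 and 1045 CPM in the sub-clusters numbered 1, 2 and 5, and those of Il17f 871, 1018 and 854 CPM. Between the first and the second, Il17a had no constant order: of the 7 libraries with at least 10 cells of both it was higher in the first in 3, by 2415 against 921 CPM in PBS 1, and higher in the second in 4, by 2064 against 1813 CPM in bleomycin 1. In 6 of these 7 libraries Il17f was higher in the second than in the first, by 1753 against 363 CPM in bleomycin 2 and by 2059 against 881 CPM in SARATg bleomycin; in PBS 1 it was lower, at 1006 against 2983 CPM.

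Across the 20 skin classes, the genes most like Il17a in level were Il17f (Pearson's r of log2(CPM + 1) 0.992) and Il22 (0.971), then 1700012B07Rik, Sult4a1 and Lingo4. Those most like Il17rc were Nrbp2 (0.963), Plekhh3, Tead3, Tacc2 and Yap1. Those most like Il23a were Hp (0.915), Catip, Retn, S100a8 and Fpr1. In the kidney Erbb2 (0.979), Col4a5, Tmem246, Hoxb2 and Tead1 were most like Il17rc, and the lists for Il17a and Il23a rest on 45 and 82 UMIs. These are descriptions over classes that share libraries.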
